A study of Mus musculus with 16 samples.

Results

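The transcripts examined here were the 10 listed genes of the MYC, MAX and MXD transcription factor network, namely *Myc*, *Mycn*, *Max*, *Mxd1*, *Mxd3*, *Mxd4*, *Mxi1*, *Mnt*, *Mga* and *Mlx*. They were found by symbol among 15386 genes of the RNA-seq table, which held 9 of them (all but *Mycn*), and among 13490 genes of the m6A table, which held all 10. The filter on low counts kept all 9 in the RNA-seq table and 9 of 10 in the m6A table, where *Mycn* was left untested. By role, the list holds 2 activators (*Myc* and *Mycn*), 1 shared partner (*Max*), 6 repressors (*Mxd1*, *Mxd3*, *Mxd4*, *Mxi1*, *Mnt* and *Mga*) and 1 gene of the neighboring MLX branch (*Mlx*).

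Erythroid colony-forming cells (CFU-E) are committed red cell precursors that depend on erythropoietin. In the RNA-seq experiment, 3 control CFU-E libraries were compared with 3 labelled as *Mettl3*-deficient CFU-E with low Kit (Kit-lo below), all sorted from the bone marrow of adult C57BL/6 mice of both sexes. The deficient mice were *Mettl3* fl/fl with 1 copy of EpoR-tdTomato-Cre (EpoR Cre/–), a driver that recombines in erythroid cells and in the macrophages of erythroblastic islands, so the deletion is not limited to CFU-E. The alleles that the control mice carried are not given in the sources used here, and no treatment was named for either group. The sorted CFU-E were negative for lineage markers, CD16/32, CD41, CD34 and Sca1 and positive for Kit and CD71, and the Kit-lo cells are the subset with low surface Kit. The groups therefore differ both in genotype and in the Kit gate, and what follows the one cannot be told apart from what follows the other. In the m6A experiment, 2 libraries of RNA bound by an antibody against N6-methyladenosine (IP) were set against 2 input libraries, all from control CFU-E. Total counts ran from 17429262 to 21329242 in the RNA-seq libraries, from 19421059 to 23160909 in the inputs and from 20085663 to 37142742 in the IPs. The labels do not say that the replicates came from separate animals, so the p-values measure the spread between these samples, which may be technical.

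MYC and its relative MYCN bind DNA as partners of MAX at the E-box CACGTG and drive genes for ribosome production, metabolism and the cell cycle. The MXD proteins, MXI1 (also called MXD2), MNT and MGA compete for the same MAX and hold E-box genes down. The MXD proteins, MXI1 and MNT work through the SIN3 corepressor with its histone deacetylases, and MGA through the PRC1.6 polycomb complex. MLX pairs with MXD1, MXD4 and MNT and with the glucose sensors MLXIP and MLXIPL. In many lineages, red cells among them, MYC is known to fall and MXD proteins to rise as precursors stop dividing and mature. METTL3 is the enzyme that writes m6A on mRNA, most often at a GGAC core.

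The promoters of the 2 genes that rose in RNA-seq (*Mxd1* and *Mxd3*), and of *Mxd4* and *Mnt*, which hold an E-box and did not, are shown first, as the 250 bases before the RefSeq start site on GRCm38.p6, on the gene's strand. Those of *Mxd1* (chr6:86669160-86669409, minus strand) and *Mxd3* (chr13:55329732-55329981, minus strand) contain none of the motifs searched. In *Mxd4* (chr5:34187711-34187960, minus strand) and *Mnt* (chr11:74830674-74830923, plus strand) the capitals mark CACGTG, which begins 219 and 123 bases before the start site.
Mxd1: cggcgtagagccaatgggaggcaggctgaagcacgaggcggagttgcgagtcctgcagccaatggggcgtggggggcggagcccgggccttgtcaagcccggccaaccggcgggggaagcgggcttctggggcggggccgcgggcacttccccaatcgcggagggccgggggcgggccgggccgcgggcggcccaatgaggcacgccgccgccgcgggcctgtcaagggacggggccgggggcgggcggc
Mxd3: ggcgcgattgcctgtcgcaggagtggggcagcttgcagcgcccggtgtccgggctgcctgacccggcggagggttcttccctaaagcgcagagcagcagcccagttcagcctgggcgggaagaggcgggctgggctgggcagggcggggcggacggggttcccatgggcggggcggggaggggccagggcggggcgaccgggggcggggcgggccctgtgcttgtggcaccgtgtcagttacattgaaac
Mxd4: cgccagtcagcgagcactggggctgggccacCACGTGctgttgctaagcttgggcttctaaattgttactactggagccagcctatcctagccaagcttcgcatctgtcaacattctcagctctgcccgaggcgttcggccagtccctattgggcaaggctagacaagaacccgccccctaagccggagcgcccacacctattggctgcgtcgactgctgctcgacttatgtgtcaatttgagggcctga
Mnt: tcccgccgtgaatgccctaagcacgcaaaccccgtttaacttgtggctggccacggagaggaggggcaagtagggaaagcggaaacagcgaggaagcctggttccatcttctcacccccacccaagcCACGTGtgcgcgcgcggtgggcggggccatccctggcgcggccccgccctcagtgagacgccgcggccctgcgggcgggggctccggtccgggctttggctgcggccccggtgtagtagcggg

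The motifs were searched for on both strands in the window from 250 bases before to 50 bases after each start site, and were the E-box CACGTG, the GATA motif AGATAA and the E2F motif TTTNNCGC. Besides *Mxd4* and *Mnt*, the E-box was found in *Mlx*, 40 bases before the start site, and in *Max*, 3 bases before it. None was found in *Mxd1*, *Mxd3*, *Mga* or at the 3 start sites of *Mxi1*. Of 32851 promoters in the table, 7.15% held the E-box, 11.18% the GATA motif and 5.169% the E2F motif. No listed gene matched the GATA motif, and *Mycn* alone matched the E2F motif, at 3 positions, of which 2 overlap. A match in these letters is a description of the sequence only. *Myc* had no entry in this table.

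For the m6A libraries, the GGACT nearest the stop codon of the longest coding transcript is shown with 10 bases on either side (capitals) for the member called higher in IP (*Mga*), the member called lower (*Mxd4*), and for *Mxd1* and *Mxd3*. The stretch of *Mga* lies in the 3′ UTR, and its GGACT begins 455 bases past the last base before the stop codon (chr2:119965407-119965431, plus strand). That of *Mxd4* also lies in the 3′ UTR, with GGACT 176 bases past the same point (chr5:34176805-34176829, minus strand). In *Mxd1* it lies in the coding sequence (chr6:86651487-86651511, minus strand), and in *Mxd3* in the 3′ UTR, 30 bases past that point (chr13:55325742-55325766, minus strand). All 4 are on GRCm38.
Mga: gggcatggtaGGACTgggcatggta
Mxd4: ccttcggtcaGGACTcaagttgcct
Mxd1: ggtgccgagaGGACTcggatggaca
Mxd3: tactctccttGGACTgagcctgcca

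The labels were checked first. *Mettl3* itself was at 123 ± 7.43 CPM (counts scaled to the effective library size) in control and 117 ± 9.52 CPM in Kit-lo (SD, n = 3). The log2 fold change was -0.07 (edgeR quasi-likelihood, Benjamini-Hochberg adjusted p = 0.634). The gene-level count may take in exons outside the floxed stretch, and 18.38% of the exonic bases overlap *Tox4* on the opposite strand, so it does not check the deletion, and every direction given for Kit-lo, the libraries labelled as deficient, rests on the labels. *Kit*, the receptor the Kit-lo gate selects on, was at 598 ± 47.1 CPM in control and 55.2 ± 12.4 in Kit-lo (log2 fold change -3.44 ± 0.15 SE, adjusted p = 4.31e-07), and since the gate uses it, it is no finding. On the second principal component, which held 14.5% of the variance, the Kit-lo libraries spread widely, at 40.2, -0.53 and -39.2 for replicates 1, 2 and 3, against -11.1 to 6.16 in control. Values without replicates 1 and 3 are therefore given where they change a member.

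Of the 9 tested genes, *Mxd1* and *Mxd3* rose in Kit-lo and none fell, where a call needed a fold of at least 1.5 and an adjusted p under 0.05. Among all 11979 genes tested, 12.1% rose and 9.83% fell by that rule. The median log2 fold change was -0.12 over the 9 and 0.01 over all genes tested. Groups did not overlap for 4 of the 9 (*Myc*, *Mxd1*, *Mxd3* and *Mga*), against 47.5% of all genes. In bulk libraries, fewer cells of a type and less RNA per cell cannot be told apart.

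*Myc*, the activator, had values of 886, 813 and 892 CPM in control and 749, 702 and 546 CPM in Kit-lo. Every Kit-lo library lay below every control, with replicate 3 the lowest. The group means were 864 ± 43.8 and 666 ± 106 (SD, n = 3), which is a log2 fold change of -0.38 ± 0.11 (SE) and 22.9% less, with an adjusted p of 0.0253 by edgeR's quasi-likelihood test. The fold of 1.298 is under 1.5, so *Myc* was not called. Without Kit-lo replicate 3 the log2 fold change was -0.24 (adjusted p = 0.0482), without replicate 1 it was -0.47 (adjusted p = 0.00724), and the adjusted p was 0.0845, 0.0909 and 0.06 without control replicate 1, control replicate 3 and Kit-lo replicate 2. *Mycn*, an activator best known from neural and early embryonic tissue, was absent from the RNA-seq table. Its counts in the m6A libraries were 5 and 11 in input and 15 and 4 in IP, too few to test.

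*Max*, the partner that MYC and the repressors share, was at 42.0, 55.2 and 42.1 CPM in control and 34.5, 44.4 and 94.3 CPM in Kit-lo. Replicate 3 of Kit-lo was above all other libraries and the remaining values overlapped. The log2 fold change of 0.31 ± 0.31 (SE, adjusted p = 0.485) was -0.23 without that replicate (adjusted p = 0.349), so no direction can be given. *Mlx*, the MAX-like partner, was at 195, 158 and 192 CPM in control and 163, 160 and 170 CPM in Kit-lo, again overlapping (log2 fold change -0.14 ± 0.10, adjusted p = 0.308). *Psmc3ip* on the opposite strand covers 19.26% of its exonic bases, and whether reads were counted by strand is not given in the sources used here, so its level is uncertain.

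*Mxd1*, the repressor long associated with terminal differentiation, was at 35.5, 32.4 and 33.3 CPM in control and 79.7, 86.1 and 77.2 CPM in Kit-lo. The groups were far apart with little spread in either. The means of 33.8 ± 1.6 and 81.0 ± 4.61 (SD, n = 3) differed by a log2 fold change of 1.26 ± 0.11 (SE), or 2.4-fold, with an adjusted p of 1.8e-05 by edgeR's quasi-likelihood test. *Mxd3*, a family member known from cycling cells in S phase, was at 2.01, 1.20 and 1.20 CPM in control and 10.2, 12.1 and 11.4 CPM in Kit-lo. Its lowest Kit-lo value was several times its highest control value. The log2 fold change was 2.92 ± 0.29 (SE), or 7.55-fold, with an adjusted p of 5.97e-05. Both genes were called in all 13 alternative fits, with log2 fold changes between 1.22 and 1.32 for *Mxd1* and between 2.78 and 3.21 for *Mxd3*. *Prelid1* overlaps 4.432% of the exonic bases of *Mxd3* on the opposite strand, and *Mxd1* has no such overlap.

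None of the other repressors was called. *Mxd4* was at 20.1, 15.5 and 20.6 CPM in control and 10.4, 16.6 and 23.6 CPM in Kit-lo, where the Kit-lo values straddled the control range (log2 fold change -0.15 ± 0.27 SE, adjusted p = 0.711, and 0.10 without Kit-lo replicate 1). For *Mxi1* the values were 24.4, 29.0 and 31.4 CPM in control and 27.5, 25 and 25.3 CPM in Kit-lo (log2 fold change -0.12 ± 0.14, adjusted p = 0.549). *Mnt*, which is expressed in most cell types as the standing antagonist of MYC, was at 7.76, 9.55 and 11.1 CPM and at 12.9, 10.8 and 9.54 CPM, and the groups overlapped (log2 fold change 0.23 ± 0.22, adjusted p = 0.456). *Mga*, the very large protein that carries a MAX-binding domain and a T-box, was at 104, 105 and 111 CPM in control and 76.2, 90.4 and 75.1 CPM in Kit-lo. Its groups did not overlap, and the log2 fold change was -0.41 ± 0.10 (SE, adjusted p = 0.0115), a fold of 1.326 that is under the threshold. Without control replicate 3 the adjusted p was 0.0538. So *Mga* and *Myc* had lower means by a similar ratio, and *Mxd1* and *Mxd3* were the repressors with higher values in every Kit-lo library.

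**Figure D1:**
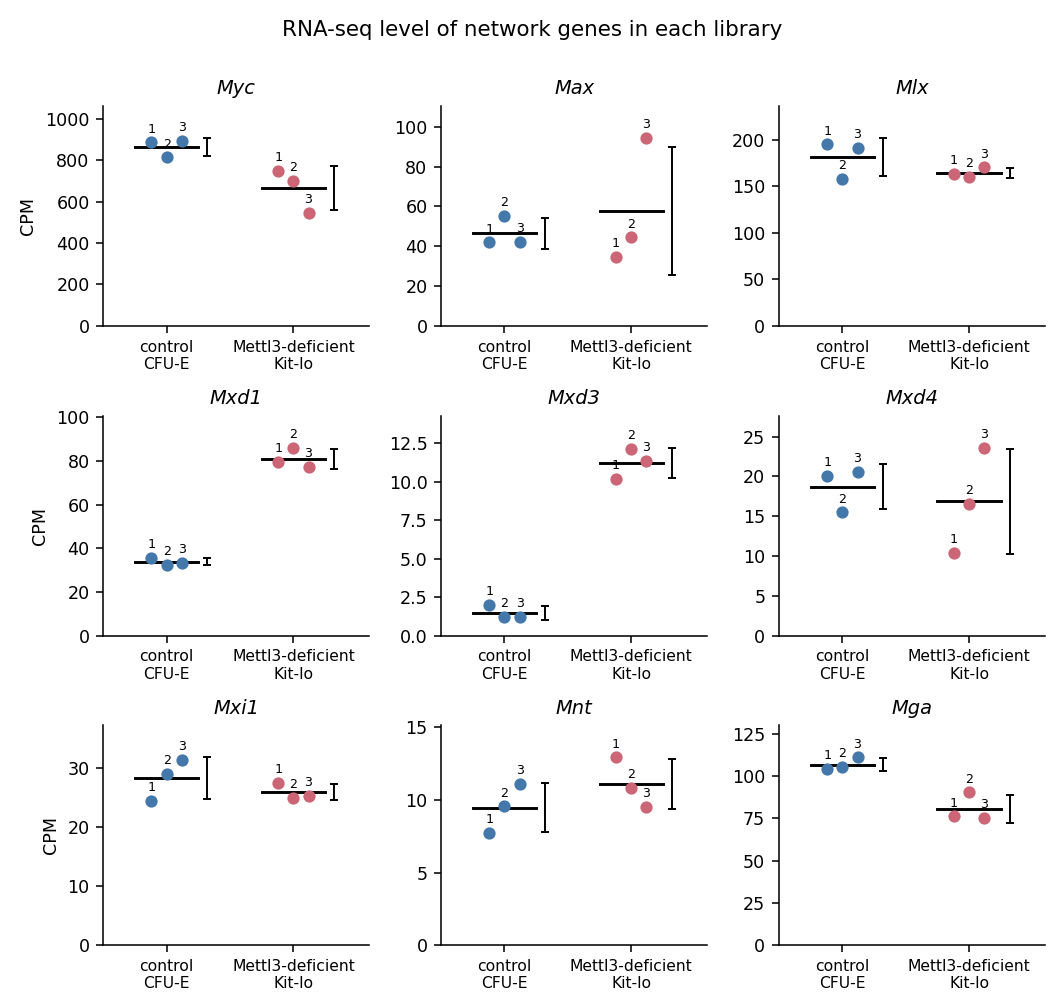
RNA-seq level in CPM (vertical axes, each from 0) of the 9 tested network genes in the 3 control CFU-E and 3 Kit-lo libraries, numbered by replicate, with the group mean (bar) and SD (whisker). *Mxd1* and *Mxd3* separate widely between the groups, *Myc* and *Mga* by less, and 1 Kit-lo library at 94.3 CPM sets the mean of *Max*.

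Levels were compared between genes as CPM per kb of the longest protein-coding transcript, since Smart-seq2 reads spread along the whole transcript. In control CFU-E, *Myc* was the most abundant at 370 ± 18.7 CPM per kb (SD, n = 3), followed by *Mlx* at 92.3 ± 10.5 and *Max* at 23.9 ± 3.92, with no overlap between these 3. *Mga* at 7.67 ± 0.27 and *Mxd1* at 7.24 ± 0.34 came next with overlapping ranges. *Mxi1* at 5.62 ± 0.71 and *Mxd4* at 4.84 ± 0.73 also overlapped each other, and *Mnt* at 2.06 ± 0.37 and *Mxd3* at 1.11 ± 0.35 were the lowest. In Kit-lo the first 3 kept their order, at 285 ± 45.4, 83.8 ± 2.65 and 29.7 ± 16.5 CPM per kb. *Mxd1* was then the leading repressor at 17.4 ± 0.99, with libraries that overlapped the lowest of *Max*. *Mxd3* went from the ninth place to the fifth, at 8.46 ± 0.74, above *Mga* at 5.78 ± 0.61 with no overlap of their libraries. *Mxi1* at 5.15 ± 0.28, *Mxd4* at 4.36 ± 1.70 and *Mnt*, the lowest at 2.42 ± 0.37, each overlapped the neighbor above.

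Set against each other, the activator and the repressors give a ratio in each library. *Myc* over the sum of the 6 repressors, both in CPM per kb, was 13.4, 12.8 and 12.7 in control and 7.77, 6.57 and 5.35 in Kit-lo. All 3 Kit-lo ratios lay below all 3 control ratios, and the means of 12.95 ± 0.37 and 6.56 ± 1.21 (SD, n = 3) differed 1.97-fold. Over *Mxd1*, *Mxd3*, *Mxd4* and *Mxi1* alone the ratio was 19.7 ± 0.18 in control and 8.11 ± 1.64 in Kit-lo, 2.43-fold apart. The numerator contributed a fold of 1.298 and the repressor sum, 28.5 ± 1.38 in control and 43.5 ± 2.24 in Kit-lo, a fold of 1.526. These ratios describe RNA and not protein, and no test was run on them because the members were chosen. With counts not divided by transcript length, where the long *Mga* weighs more, the log2 difference of the ratio was -0.57 in place of -0.98.

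The makeup of the repressor sum also differed. *Mxd1* made up 25.4% ± 1.55 of it in control and 39.9% ± 1.86 in Kit-lo (SD, n = 3). The share of *Mxd3* was 3.9% ± 1.27 and 19.4% ± 0.72. *Mga*, with the largest mean share in control (26.9% ± 0.74, overlapping that of *Mxd1*), was at 13.3% ± 0.94 in Kit-lo, below *Mxd1* and *Mxd3*. *Mxi1* was at 19.7% ± 2.22 and 11.9% ± 1.25, and *Mxd4* at 16.9% ± 1.95 and 9.95% ± 3.74. *Mnt* was the only one of the 6 whose share overlapped between groups, at 7.22% ± 1.11 and 5.59% ± 1.10. A share falls when another gene's rises, so these are not separate observations.

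**Figure D2:**
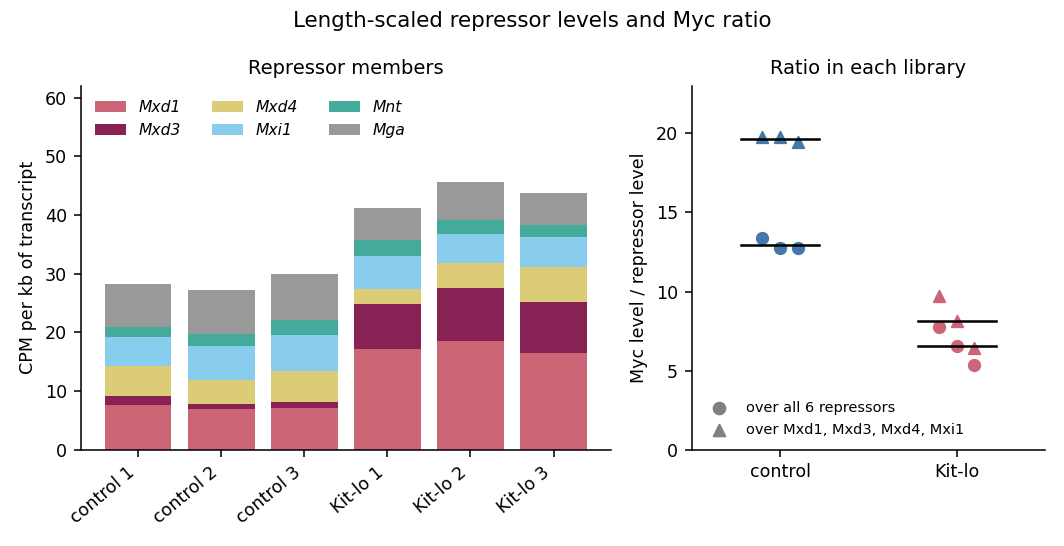
Left, stacked bars of CPM per kb of transcript for the 6 repressors in each of the 6 RNA-seq libraries, and right, the level of *Myc* over that of all 6 repressors (circles) or of *Mxd1*, *Mxd3*, *Mxd4* and *Mxi1* (triangles), with 1 point per library and a bar at the group mean. The *Mxd1* and *Mxd3* segments are taller in all Kit-lo bars, and the ratio over all 6 is 12.7 to 13.4 in control and 5.35 to 7.77 in Kit-lo.

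In RNA-seq, none of the further genes of the network was called. *Mlxip* had a log2 fold change of 0.00 (adjusted p = 0.99), *Mlxipl* was too low to test and *Mycl* was not in either table. Among 24 tested cofactors of MYC and regulators of its stability, 2 rose and 2 fell, with a median of -0.01. *Usp28*, a deubiquitinase that stabilizes MYC, rose with a log2 fold change of 0.83 ± 0.25 (SE, adjusted p = 0.026), and *Cdk9*, the kinase of the elongation factor P-TEFb, rose by 0.73 ± 0.19 (adjusted p = 0.0134). *Smarcb1*, a SWI/SNF subunit that binds MYC, fell by 0.79 (adjusted p = 6.99e-05), and *Ruvbl1*, an ATPase of the TIP60 and INO80 complexes, fell by 0.64 (adjusted p = 0.000158). Of 13 genes for corepressors that the MXD proteins and MNT work through, none rose and 1 fell, with a median of -0.08. That gene was the histone deacetylase *Hdac2*, at 43.1 ± 7.31 CPM in control and 21.3 ± 1.84 in Kit-lo (log2 fold change -1.02 ± 0.16, adjusted p = 8e-04). Of 9 tested PRC1.6 genes, which work with MGA, none rose and 1 fell, the ubiquitin ligase *Rnf2* (log2 fold change -0.62 ± 0.13, adjusted p = 0.00494), with a median of -0.11. These counts of calls are close to or below what 12.1% higher and 9.83% lower would give in lists of this size.

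The targets of the network were read from lists of textbook genes, which were chosen with earlier results of these data known. Of 42 tested MYC-induced genes, 3 rose and 8 fell, beside 12.1% and 9.83% of all genes, and the median log2 fold change was -0.23 against 0.01 over all genes. The count of 3 was 1 without control replicate 1 or control replicate 2, and 5 with scaling by library size alone. With no threshold on the fold, 7 were higher and 18 lower at an adjusted p under 0.05, where 17.6% and 16.9% of all genes were. *Hk2*, hexokinase 2 of glycolysis, was at 5.42 ± 1.62 CPM in control and 0.41 ± 0.14 in Kit-lo (log2 fold change -3.71 ± 0.44, adjusted p = 0.000169). *Npm1*, nucleophosmin of the nucleolus, was at 1112, 1206 and 1299 CPM in control and 445, 435 and 441 CPM in Kit-lo, a wide separation (log2 fold change -1.45 ± 0.08, adjusted p = 1.58e-06). *Wdr12*, needed for the large ribosomal subunit, had a log2 fold change of -1.12 ± 0.08 (adjusted p = 8.43e-06). The other 5 that fell were *Rrp9*, *Nop58*, *Pa2g4*, *Ldha* and *Wdr43*, by 0.66 to 0.98 on the log2 scale. Against that direction, *E2f2*, a cell cycle factor, rose from 14.6 ± 2.30 to 81.0 ± 11.8 CPM (log2 fold change 2.48 ± 0.16, adjusted p = 4.91e-06), and *Pkm* and *Slc16a1* were the other 2 that rose. The groups of *Slc16a1* overlapped, and DESeq2 did not call it (adjusted p = 0.0607).

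Genes that MYC is known to hold down were fewer, and of 9 tested, 2 rose and 1 fell, which is near the 12.1% and 9.83% of all genes in a list of this size, with a median of 0.03. *Cdkn1a*, the cell cycle inhibitor p21 and also a target of p53, was at 1.20, 0.63 and 0.74 CPM in control and 22.7, 22.8 and 17.1 CPM in Kit-lo (log2 fold change 4.57 ± 0.29, adjusted p = 3.99e-06). *Btg2*, an antiproliferative gene that p53 also induces, rose by 1.07 ± 0.15 (adjusted p = 4e-04). *Klf6* fell by 1.06 on the log2 scale (adjusted p = 0.00236).

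**Figure D3:**
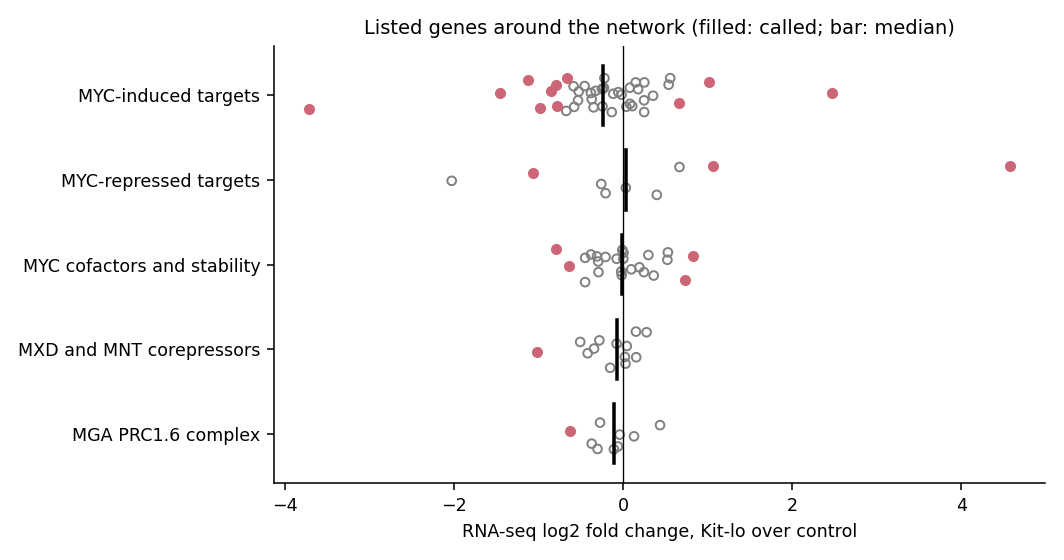
RNA-seq log2 fold change of Kit-lo over control (horizontal axis) for the tested genes of 5 lists around the network, with 1 point per gene, filled where called, and a bar at the list's median. The MYC-induced list has its median at -0.23, with *Hk2* at -3.71 and *E2f2* at 2.48 as its extremes, and the other medians lie between -0.11 and 0.03.

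The 5 genes whose centered log2 CPM ran closest to that of *Myc* over the 6 libraries were *Ciz1*, *Mrpl1*, *Opa1*, *Pdp2* and *Supt20*, with root mean square differences of 0.0456 to 0.0548 on the log2 scale. Their log2 fold changes lay between -0.44 and -0.31. Within the network *Mga* was nearest to *Myc*, with a difference of 0.139 that ranked 429 of 11978 genes. *Mlx* and *Mxi1* followed at 0.214 and 0.218, and *Mxd1* and *Mxd3* were the farthest at 0.833 and 1.66. The measure takes in both the difference between groups and the spread within them.

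Other features of the libraries moved with the groups as well. The 12 erythroid markers summed to 3707, 3514 and 3726 CPM in control and 6093, 6972 and 6436 CPM in Kit-lo. Of these markers, 7 of 12 rose and none fell, beside 12.1% and 9.83% of all genes. *Klf1* was the most abundant of them in every library, at 919 to 1008 and 1392 to 1540 CPM. The band 3 gene *Slc4a1* (log2 fold change 7.31), the globin genes *Hbb-bs* (6.84) and *Hba-a1* (4.99) and the heme synthesis gene *Alas2* (5.58) had the largest folds, each with an adjusted p of at most 4.14e-06. Of the 8 early progenitor markers, 3 were tested and 2 fell (*Kit* and *Gata2*, not *Meis1*), beside 9.83% of all genes. The 5 in the table summed to 582, 664 and 662 CPM in control and 72.7, 58.1 and 47.2 CPM in Kit-lo. That sum is mostly *Kit*, which the gate selects on, so its fall is no finding. *Gata2*, active in early progenitors, had a log2 fold change of -3.93 (adjusted p = 1.16e-06). The part that these markers have in the values of *Mxd1*, *Mxd3* and *Myc* was not tested.

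Markers of cells that the gate should not hold were also read. The 9 macrophage genes in the table summed to 22.8, 22.8 and 28.4 CPM in control and 16.6, 13.3 and 16.1 CPM in Kit-lo, with *Cd163* the most abundant over the 6 libraries together, at 4.81 to 13.9 CPM (in Kit-lo replicate 2 *Cd68* was higher, at 5.92 CPM), and *Adgre1* at 0 in the 3 Kit-lo libraries. Of these, *C1qa* and *Cd163* fell (log2 fold changes -1.91 and -1.09, adjusted p = 0.0306 and 0.00387). The 9 granulocyte genes summed to 39.2, 29.7 and 25.8 CPM in control and 16.4, 16.1 and 24.8 CPM in Kit-lo, with *Mpo* the leading gene in control at 16.1 to 23.3 CPM. *Mpo* fell (log2 fold change -1.97, adjusted p = 0.0231, and 0.0551 by DESeq2, which did not call it) and *Ngp* rose from a low level (3.31, adjusted p = 0.0091). The 5 megakaryocyte genes summed to 21.1 to 27.2 CPM in control and 21.2 to 29.2 CPM in Kit-lo, with *Itga2b* and *Gp9* higher (log2 fold changes 1.62 and 1.31, adjusted p = 0.00962 and 0.0226) and *Gp1ba* lower (-1.56, adjusted p = 0.00925). The 6 lymphocyte genes stayed between 2.91 and 10.5 CPM, with none of the 2 tested called.

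In the m6A comparison, *Mga* was higher in IP than in input and *Mxd4* was lower, at an adjusted p under 0.05, and the other 7 tested members were not called. Of all 11447 genes tested, 7.9% were higher and 7.86% lower in IP by that rule, with a fit on 2 libraries against 2. The median log2 ratio of IP over input was 0.33 over the 9 members and 0.06 over all genes. Input and IP values did not overlap in 8 of the 9, all but *Mxi1*, where 60.9% of all genes do not overlap. These libraries were primed from the poly(A) tail and amplified from that end, so counts are not in proportion to transcript length, and levels are not compared between genes here.

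*Mga* was at 12.8 and 15.6 CPM in the inputs and at 30.9 and 31.8 CPM in the IPs. The IP values agreed closely and both stood well above the inputs, with a log2 ratio of 1.15 ± 0.25 (SE), or 2.21-fold, and an adjusted p of 0.0131 by edgeR's quasi-likelihood test. It was called in 10 of 11 alternative fits, and without input replicate 1 the log2 ratio was 0.99 with an adjusted p of 0.152. *Mxd4* was at 20.7 and 23 CPM in input and at 3.86 and 4.87 CPM in IP. Input exceeded IP 5.01-fold (log2 ratio -2.33 ± 0.28, adjusted p = 0.000399), and all 11 alternatives called it. *Gm42846* overlaps 6.059% of the exonic bases of *Mxd4* on the opposite strand.

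*Myc* was at 354 and 249 CPM in input and at 562 and 364 CPM in IP. Both IP values lay above both inputs, but replicates of each kind differed widely, and the log2 ratio of 0.62 ± 0.27 (SE) had an adjusted p of 0.149. *Mxd1* was at 3.84 and 2.92 CPM in input and 7.5 and 5.98 CPM in IP, a log2 ratio of 1.0 ± 0.33 with an adjusted p of 0.066. Neither was called. With a library left out, the log2 ratio of *Myc* ran from 0.25 without IP replicate 1 (adjusted p = 0.602) to 0.90 without IP replicate 2 (adjusted p = 0.0296), and was 0.38 without input replicate 2 (adjusted p = 0.629). That of *Mxd1* ran from 0.80 without IP replicate 1 (adjusted p = 0.212) to 1.18 without input replicate 1 (adjusted p = 0.182). Of the 4 fits with a library left out, that without IP replicate 2 was the one that called both, where *Mxd1* had a log2 ratio of 1.14 (adjusted p = 0.0391). *Mxd3*, the other gene that rose in Kit-lo, was at 6.0 and 5.73 CPM in input and 4.29 and 4.42 CPM in IP (log2 ratio -0.43 ± 0.31, adjusted p = 0.365). So of the 2 genes that rose in RNA-seq, one had higher and the other lower values in IP, and neither was called with the main settings.

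*Max* was at 21.1 and 17.7 CPM in input and 27.2 and 24.7 CPM in IP (log2 ratio 0.42 ± 0.25, adjusted p = 0.272). *Mlx* was at 54.0 and 55.8 CPM in input and 69.5 and 59.1 CPM in IP (0.23 ± 0.22, adjusted p = 0.514). For *Mnt* the values were 5.38 and 4.61 CPM in input and 5.61 and 7.04 CPM in IP (0.33 ± 0.31, adjusted p = 0.5). *Mxi1* was at 13.4 and 10.4 CPM in input and 16.2 and 10.4 CPM in IP, the one member whose libraries overlapped (0.16 ± 0.30, adjusted p = 0.758). Among the further genes, *Mlxip*, a partner of MLX, was lower in IP, at 30.0 and 27.8 CPM in input and 8.03 and 5.88 CPM in IP (log2 ratio -2.05 ± 0.28, adjusted p = 0.000778). *Mettl3* and *Kit* were not called, with log2 ratios of 0.13 and 0.38 (adjusted p = 0.747 and 0.46).

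**Figure D4:**
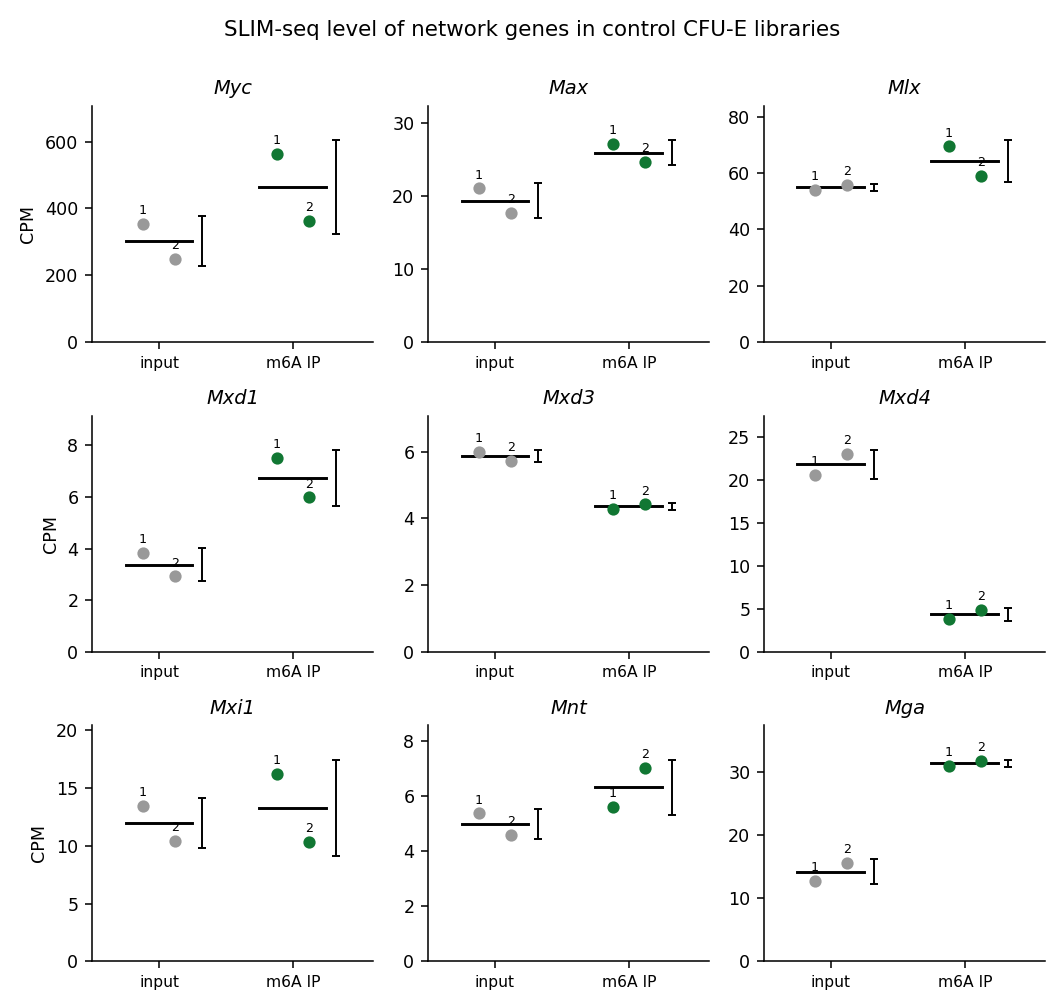
SLIM-seq level in CPM (vertical axes, each from 0) of the 9 tested network genes in the 2 input and 2 m6A IP libraries of control CFU-E, numbered by replicate, with the group mean (bar) and SD (whisker). *Mga* lies higher and *Mxd4* lower in both IP libraries.

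Transcript length and GGACT content varied widely among the members. *Mga* has the longest coding transcript of the 10, at 13931 bases with 8 GGACT, or 0.574 per kb. *Mxd4* has 3872 bases and 5 GGACT, all in the 3′ UTR, and is still the member lowest in IP against input. *Myc* has 6 GGACT in 2338 bases, the densest of the 10 at 2.57 per kb, and *Mxd3* has 3 in 1327 bases. Over 11441 tested genes, whose values share the same 4 libraries, Spearman's rho with the log2 ratio of IP over input was 0.34 for transcript length, 0.185 for the number of GGACT, -0.0721 for GGACT per kb and -0.332 for GC content. The median gene had 3109 bases and 3 GGACT. These values are descriptions across genes, which are not independent.

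In IP over input, 7.9% of all genes were higher and 7.86% lower, as the base for the lists around the network. Of 13 genes for corepressors of the MXD proteins and MNT, 1 was higher and 6 were lower, with a median of -0.56. The higher one was *Sap18* (log2 ratio 0.91 ± 0.24, adjusted p = 0.0324), and the lower ones were *Suds3*, *Hdac2*, *Sap30*, *Ncor1*, *Sin3b* and *Hdac1*, with log2 ratios from -3.52 to -0.72. *Hdac2*, which fell in Kit-lo, was at 222 and 118 CPM in input and 30.3 and 21.2 CPM in IP (log2 ratio -2.72 ± 0.33, adjusted p = 0.000378). Of 10 PRC1.6 genes, 1 was higher, *Cbx3* (1.92 ± 0.42, adjusted p = 0.0126), and 3 were lower (*Ring1*, *Yaf2* and *E2f6*). *Cbx3* had unlike inputs, at 181 and 540 CPM, against 1444 and 1278 CPM in IP. Of 25 genes for cofactors and MYC stability, 7 were higher and 1 was lower (*Cdk9*, log2 ratio -4.09 ± 0.25, adjusted p = 4.93e-06). *Gsk3b*, a kinase that marks MYC for degradation, was at 9.83 and 13.9 CPM in input and 358 and 262 CPM in IP (4.71 ± 0.29, adjusted p = 5.92e-06), and *Usp28*, which acts against that degradation, was at 0.71 and 0.67 CPM in input and 2.25 and 2.31 CPM in IP (1.72 ± 0.46, adjusted p = 0.0328). Of 43 MYC-induced genes 2 were higher and 6 lower, with a median of -0.10, and of 9 MYC-repressed genes none was higher and 2 were lower.

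The RNA-seq and m6A values of the members stand side by side in the plot of fold changes. *Mxd1* had positive values in both (1.26 and 1.0), *Mga* a lower level in Kit-lo and a higher one in IP (-0.41 and 1.15), *Mxd3* the reverse signs (2.92 and -0.43), and *Mxd4* a low IP value with no call in RNA-seq (-2.33 and -0.15). No member was called in both comparisons with the main settings. *Mxd1*, called in all 13 RNA-seq alternatives, was called higher in IP in 3 of 11 alternatives. These were upper quartile normalization, the replicate block and leaving out IP replicate 2. With no fold threshold in RNA-seq, *Mga* was called lower in Kit-lo and so in both comparisons.

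**Figure D5:**
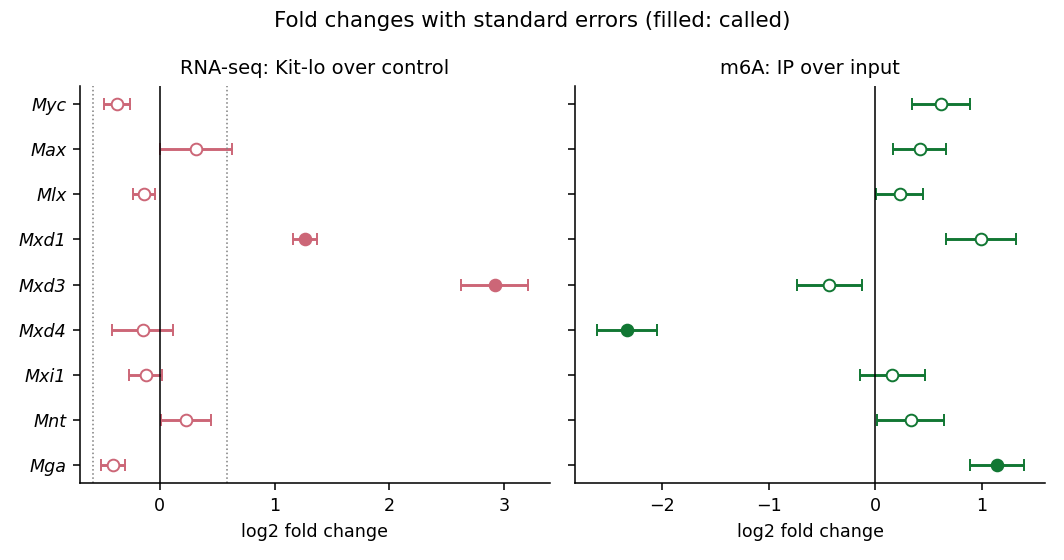
Log2 fold change with its standard error (whiskers) for the 9 tested network genes, in RNA-seq of Kit-lo over control (left, dotted lines at a fold of 1.5) and in m6A IP over input of control CFU-E (right), with filled points for called genes. *Mxd1* and *Mxd3* are the filled points on the left, and *Mga* (above 0) and *Mxd4* (below 0) those on the right.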

How the data were processed

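RNA-seq libraries of control CFU-E (3) and of cells labelled *Mettl3*-deficient CFU-E Kit-lo (3), and m6A input (2) and IP (2) libraries of control CFU-E, were analysed. Of 16 samples, 10 had a column of values, and the 6 ProE samples were not analysed here. The authors filtered reads with fastp 0.23.4, quantified them with kallisto 0.48.0 on mm10, summed transcripts to genes with tximport and deposited estimated counts per gene without normalization. All deposited counts were whole, so rounding changed none. Smart-seq2 gave the RNA-seq libraries and SLIM-seq the m6A libraries. The SLIM-seq primer carries a molecular identifier, whose use in the counting is not stated, and the strand counted is not given in the sources used here. Counts of PCR copies are not independent molecules, and the spread between replicates sets the precision (biological coefficient of variation 19.1% in RNA-seq and 21.9% in m6A).

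Each experiment was fitted on all its genes with edgeR 4.0.16 in R 4.3.3 (TMM normalization, filterByExpr, glmQLFit, glmQLFTest, no block) with Benjamini-Hochberg adjustment. A standard error is the absolute log2 fold change over the square root of F. RNA-seq calls needed a fold of at least 1.5 and an adjusted p under 0.05, m6A calls the latter alone. CPM used effective library sizes. Alternatives were DESeq2 1.42.0, 3 other normalizations, no filter, the replicate number as a block, another fold threshold and leaving out each library. Lengths, GGACT positions and overlaps came from GENCODE annotation of GRCm38, in which 99.9% of symbols were found, with the longest protein-coding transcript of each gene, and promoters from RefSeq (GRCm38.p6). The fits were tested on simulated data first.

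The members and lists were chosen with earlier results of these data known. The text names all members, *Mycl*, *Mlxip*, *Mlxipl*, *Mettl3* and *Kit*, of each other list up to 4 called genes with the largest RNA-seq change (for the 3 partner lists also up to 2 called genes highest in IP) and the 5 genes nearest *Myc* in root mean square difference of log2 CPM centered on each gene's mean. Some other called genes of the partner and target lists are named beside their counts and were chosen after their values were seen. Figures were drawn with matplotlib 3.10.9.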

Additional observations from a re-analysis of the deposited data

How the results depend on the processing

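Most values kept their direction and their side of the threshold, 204 of the 216 values of single members among them. Those 216 include the change of fold threshold alone, which refits nothing and cannot change a direction. Of the 92 recomputed counts and ratios, 81 stayed close to the value reported. In RNA-seq, dropping the fold threshold gave 2 members lower (*Myc* and *Mga*) in place of 0, and 7 MYC-induced genes higher and 18 lower. The MYC-induced genes called higher were 5 with library size alone, and 1 to 4 when a library was left out, with 1 without control replicate 1 or 2. The log2 change of the ratio of *Myc* to repressors was -0.5657 with counts not divided by length, and -1.12 to -0.8528 with a library left out. With a library left out, signs changed for *Mxd4* (-0.46 to 0.10, the latter without Kit-lo replicate 1) and *Max* (-0.23 without Kit-lo replicate 3, otherwise up to 0.58) in RNA-seq, and for *Mxi1* in m6A (-0.22 without IP replicate 1 and -0.02 without input replicate 2, otherwise up to 0.44), none of them called. Members called higher in IP were 2 with upper quartile normalization, which added *Mxd1* (log2 ratio 1.12, adjusted p = 0.0288), and 0 to 3 with a library left out, 0 without input replicate 1 and 3 without IP replicate 2. The cause was not tested.

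The replicate numbers do not pair the samples by the labels. Deviations of same-numbered libraries correlated by 0.03, -0.02 and -0.07 in RNA-seq and by 0.21 in m6A. With the replicate number as a block, *Mxd1* and *Mxd3* were again the 2 members called in RNA-seq, where 1370 genes rose and 1125 fell, and 3 members were called higher in IP, with *Myc* (0.61, adjusted p = 0.00716) and *Mxd1* (1.0, adjusted p = 0.0216) added, as 1783 genes were higher and 1755 lower in place of 904 and 900. Across all genes, calls in IP were 164 higher and 427 lower without input replicate 1, 571 and 672 without input replicate 2, 433 and 740 without IP replicate 1, and 1358 and 968 without IP replicate 2. The median log2 ratio of all genes was 0.213 with library size alone and 0.184 with upper quartile normalization against 0.0563, and higher calls made up 60.6% (934 higher, 608 lower) and 65.8% (1451 and 754) of calls against 50.1%. In RNA-seq, with no fold threshold 2104 genes were higher and 2024 lower, against 1453 and 1178. The smallest fold that 2 or 3 libraries a group can show was not measured.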
